A study of Mus musculus with 6 samples.

Results

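The epithelial microRNAs mmu-miR-200a, mmu-miR-200b, mmu-miR-200c, mmu-miR-141 and mmu-miR-429, which form the miR-200 family, are described here together with mmu-miR-203 and mmu-miR-205, written without the species prefix from here on. These 7 were chosen by name from the probes of a microRNA array, and all 7 were found among its 334 mouse probes, with 4 spots each. All 7 were among the 294 probes bright enough to be tested. The samples were embryoid bodies, clusters of embryonic stem (ES) cells that have begun to differentiate in suspension, collected on day 7 from mouse ES cells of the strain 129S7/SvEv Brd-Hprt b-m2. The groups differed in the human BRCA1 of the cells, which was wild type in WT, carried the missense change M1652I in MI and carried R1699Q in RQ; in all of them feeders were depleted on gelatin first. Each group held 2 arrays, labelled as biological replicates; as the labels state no separate cultures or clones, p-values cover the spread of these samples alone, and that spread may be technical. On every array Cy3 carried the RNA of the group and Cy5 the RNA of a reference labelled as wild-type embryoid bodies, with no dye swap. The WT arrays thus set RNA labelled wild type against a reference labelled wild type.

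MicroRNAs are short RNAs that pair, mainly through their seed bases near the 5′ end, with messenger RNAs and lower their translation or stability. The miR-200 family is known as a keeper of the epithelial state: its members repress ZEB1 and ZEB2, the transcription factors that silence E-cadherin during epithelial-mesenchymal transition (EMT), and the ZEB proteins in turn repress both miR-200 clusters. miR-205 is known from basal and squamous epithelia and also represses ZEB factors, while miR-203 is known from skin, where it limits the proliferation of progenitors by repressing p63. BRCA1 is a DNA repair protein, and its C-terminal BRCT repeats, in which both missense changes lie, bind phosphorylated partner proteins.

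The mature sequences are shown because the family falls into a pair of seed groups that cut across its genomic clusters, and because a hybridisation array can separate near-identical members only by a few bases. They are from RefSeq (GRCm38.p6), 5′ to 3′, with the seed, bases 2 to 8, in capitals.

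miR-200a: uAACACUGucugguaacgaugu

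miR-141: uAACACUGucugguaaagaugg

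miR-200b: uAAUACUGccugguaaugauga

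miR-200c: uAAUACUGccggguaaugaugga

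miR-429: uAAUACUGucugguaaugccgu

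miR-203: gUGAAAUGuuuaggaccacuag

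miR-205: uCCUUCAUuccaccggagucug

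miR-200a and miR-141 share the seed AACACUG, and miR-200b, miR-200c and miR-429 share AAUACUG; in the RefSeq table no other mature mouse microRNA has either seed. The sequences of miR-200a and miR-141 differ at 2 of 22 bases, and so do those of miR-200b and miR-200c. miR-200a differs from its cluster neighbours miR-200b and miR-429 at 4 of 22 bases each. The probes matched the mature sequences over 22 bases, and that of miR-203 over 21. Signal shared between members that differ at 2 bases was not tested. No other mouse probe came within 6 edits of a member's, the nearest being that of miR-682 to miR-205 at 7 edits.

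The genomic clusters pair the members differently from the seeds. The hairpins of miR-200b, miR-200a and miR-429 lie within 1846 bases on the minus strand at chr4:156053905-156055750 (GRCm38.p6), and RefSeq places the long non-coding RNA gene Gm13648 over the same stretch. Those of miR-200c and miR-141 lie within 477 bases on the minus strand at chr6:124717914-124718390, where the gene table lists no other overlapping gene. The hairpin of miR-203 is at chr12:112130880-112130955 on the plus strand, overlapping Gm51289. That of miR-205 is at chr1:193507463-193507530 on the minus strand, overlapping its host gene Mir205hg. miR-205 comes from the 5p arm of its hairpin and the other 6 from the 3p arm.

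Over the whole array, 241 to 255 of the 334 mouse probes were well above background in Cy3 and 262 to 271 in Cy5. The 10 stem cell microRNAs on the array (miR-290 and miR-302 clusters) were all above background in Cy3 on all 6 arrays, while in Cy5 only 2 were, and on the WT arrays their median log2 Cy3 over Cy5 was 5.13. For the 5 blood microRNAs that median was -3.71, with 5 above background in Cy5 and 3 in Cy3. On the WT arrays the median was -2.79 for the neural list and -2.15 for the mesenchymal and EMT list. It was -0.74 for the endoderm and liver list, -0.55 for the muscle and heart list and 0.20 for the other epithelial list. The reference thus differed from the WT samples in several marker lists, most in stem cell and blood markers, although both are labelled wild type. A ratio near 0 for a member says only that the 2 dyes gave like signals. The single slide held both WT arrays in its first row and all 4 mutant arrays in its second, so slide row and the difference of either mutant from WT cannot be told apart. Negative-control spots had net Cy3 signals of 93.0 and 102.8 on the RQ arrays and 43.8 to 59.4 on the other 4, and the part of this in the results was not tested. In embryoid bodies, which hold several cell types, fewer cells of a type and less RNA per cell cannot be told apart.

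The signals before any scaling showed which members were measurable and how the groups lay. A net signal is the mean of a probe's spots minus local background, in scanner units. The net Cy3 signal of miR-200a was 1446.0 and 877.7 on the WT arrays, 451.2 and 509.0 on the MI arrays, and 837.5 and 905.0 on the RQ arrays. MI was below both WT arrays, and RQ overlapped WT. In Cy5, where each array held the reference, miR-200a gave 1229.6 to 1533.0.

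The other members of the miR-200a cluster had the same order of groups. Net Cy3 of miR-200b was 324.7 and 243.5 in WT, 147.2 and 179.0 in MI, and 275.2 and 281.3 in RQ. miR-429, which shares its seed with miR-200b, gave 157.0 and 100.5 in WT, 76.2 and 93.2 in MI, and 131.1 and 126.0 in RQ. For both, the MI arrays lay below both WT arrays. The RQ arrays lay between the WT arrays, with their higher negative-control signal still part of the values. The cluster on chromosome 6 did likewise in MI. miR-200c gave 226.8 and 193.5 in WT, 111.2 and 124.0 in MI, and 197.0 and 194.8 in RQ. miR-141, the dimmest member above background, gave 105.2 and 75.5 in WT, 63.5 and 72.2 in MI, and 103.0 and 110.8 in RQ. The RQ values of miR-141 were close to the net Cy3 of the negative-control spots on those arrays (93.0 and 102.8). Its MI values were little above that of the MI arrays (43.8 and 59.4), and miR-429 was not far above it in MI or RQ. All 5 family members were thus lower in Cy3 on both MI arrays than on both WT arrays before scaling, where 19.7% of all tested probes were, and the median net Cy3 of tested probes was 169.2 and 205.3 on the MI arrays and 242.7 and 184.5 on the WT arrays.

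miR-205 showed another order. Its net Cy3 was 459.4 and 332.2 in WT, 363.5 and 456.2 in MI, and 595.8 and 540.2 in RQ. The MI arrays lay between the WT arrays, and both RQ arrays were above the other 4. Its net Cy5, the reference, was 397.5 and 404.0 on the RQ arrays and 442.5 to 507.8 on the other 4.

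In Cy3 none of the spots of miR-203 was well above background on any array, with net Cy3 of 35.2 to 59.8, but was above background in Cy5 in all spots, at 182.5 to 208.8. It was therefore measurable in the reference and not well above background in WT, MI or RQ samples, and no fold change between groups is given for it. The other 6 members were above background in both channels in all spots, except that miR-141 was so in Cy3 in 3 of its 4 spots on MI replicate 1.

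**Figure D1:**
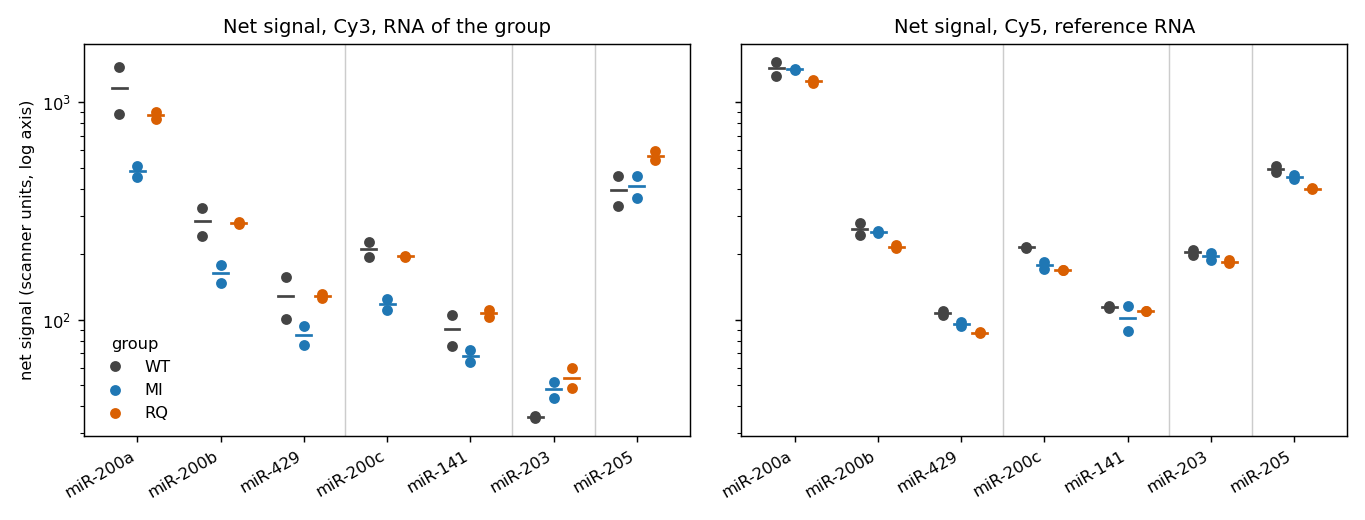
Net signal of the 7 microRNAs in Cy3 (left, RNA of the group) and Cy5 (right, reference), in scanner units on a log axis; each point is 1 array, short bars are means of 2 arrays, and grey lines separate the genomic clusters. In Cy3 the MI points of the 5 miR-200 family members lie below the WT points, the RQ points of miR-205 lie above the others, and miR-203 is bright only in Cy5.

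To compare groups, the log2 ratio of Cy3 to Cy5 of each array was used after loess normalisation, which removes the trend of the ratio with brightness within each array. For miR-200a this ratio was 0.84 and 0.86 on the WT arrays, -0.66 and -0.83 on the MI arrays, and -0.83 and -0.35 on the RQ arrays. Both mutant groups lay below WT, and they overlapped each other. The means were 0.85 ± 0.016 in WT, -0.75 ± 0.12 for MI and -0.59 ± 0.34 for RQ (SD, n = 2 each).

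The miR-200b ratios were -0.25 and -0.46 in WT, -0.75 and -0.71 in MI, and -0.60 and -0.58 in RQ. Both mutant groups lay below WT here too, by less than for miR-200a. Those of miR-429 were -0.18 and -0.49 in WT, -0.64 and -0.57 in MI, and -0.29 and -0.44 in RQ, so that MI was below WT and RQ lay within the WT range. Those of miR-200c were -0.48 and -0.47 in WT, -0.75 and -0.81 in MI, and -0.52 and -0.68 in RQ, with both mutants below WT. For miR-141, which is transcribed with miR-200c, the ratios were -0.66 and -0.85 in WT, -0.77 and -1.02 in MI, and -0.83 and -0.82 in RQ, and all groups overlapped. miR-205 had ratios of -0.29 and -0.51 in WT, 0.10 and 0.05 in MI, and 0.30 and 0.13 in RQ. Both mutants were above WT, and RQ was above MI.

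**Figure D2:**
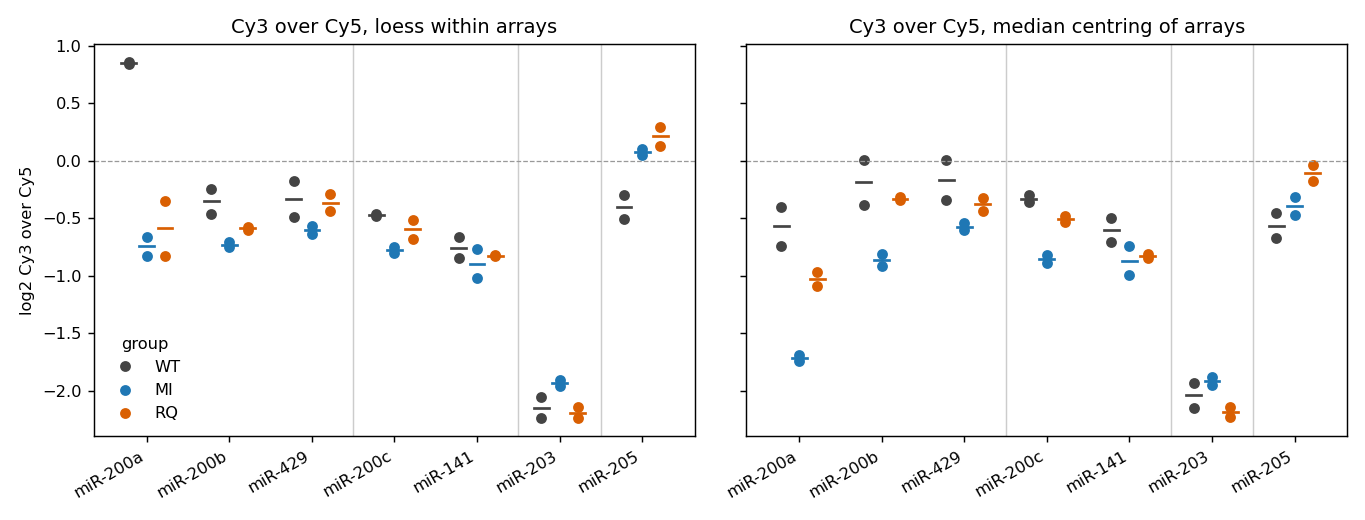
log2 Cy3 over Cy5 of the 7 microRNAs after loess within arrays (left) and after centring each array on its median (right); each point is 1 array, short bars are means of 2 arrays, and grey lines separate the genomic clusters. With loess the WT points of miR-200a lie at 0.84 and 0.86 and those of both mutants below 0; with median centring the RQ points lie between WT and MI.

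In the comparison of MI with WT, which asks whether M1652I embryoid bodies differ in these microRNAs, 1 of the 7 members changed at an adjusted p under 0.05 (limma, Benjamini-Hochberg over 294 probes); over all tested probes 15.6% did, 9.18% upward and 6.46% downward. miR-200a fell by 1.59 on the log2 scale (SE 0.18, 95% interval -2.03 to -1.16, adjusted p = 0.0046), which is 3.02-fold, the third largest fall of the 294. miR-200b differed by -0.37 (SE 0.12, interval -0.66 to -0.087, adjusted p = 0.080) and miR-200c by -0.30 (SE 0.11, interval -0.58 to -0.031, adjusted p = 0.11). Neither passed the threshold with loess, and both passed it under each of the 4 other scalings run, as did miR-200a. The differences of miR-429 (-0.27, adjusted p = 0.23) and miR-141 (-0.14, adjusted p = 0.47) did not pass. miR-205 differed by 0.48 (SE 0.13, adjusted p = 0.058) and passed under none of those 4 scalings, where its difference was 0.031 to 0.17. All 5 family members were thus below 0, with a median of -0.30 against 0.11 over all tested probes, and 4 of the 7 members had both MI arrays below both WT arrays, where 22.8% of all probes had. For miR-205 both MI arrays were above both WT arrays, as for 45.6% of all probes.

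The 4 other scalings gave the same direction for all 5 family members in MI, with other sizes and more calls. They were centring each array on its median, loess fitted on bright spots, Cy3 alone, and the signals as processed by the scanner software. Cy3 alone is the Cy3 value taken after the loess step, with the average intensities of both channels quantile-normalised between arrays. It thus still depends on loess and on Cy5, and is not the net Cy3 signal. Of the 5 family members 3 were called lower under each of the first 3 and 4 under the last, against 1 with loess. Of all 294 tested probes they called 21, 21, 23 and 23 lower, against 19 with loess. For miR-200a the change was -1.75 to -1.14 (log2) under them. For miR-200b the change was -1.27 to -0.56 and for miR-200c -1.33 to -0.52. miR-429 lay below 0 under all 4, at -1.10 to -0.20, and passed under none; miR-141 passed with the processed signals alone, at -0.98. The call of miR-200b, with the main scaling, was gained without WT replicate 2 (-0.48, adjusted p = 0.047).

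In the comparison of RQ with WT, which asks the same of R1699Q, 2 of the 7 members changed, where 21.4% of all tested probes did, 7.48% upward and 13.9% downward. miR-200a fell by 1.44 (SE 0.18, 95% interval -1.87 to -1.001, adjusted p = 0.0081, limma), which is 2.71-fold and the second largest fall of the 294. miR-205 rose by 0.61 (SE 0.13, interval 0.30 to 0.92, adjusted p = 0.022), which is 1.53-fold and ranks 25th among rises. For the other family members the differences were -0.23 for miR-200b (adjusted p = 0.21), -0.12 for miR-200c (adjusted p = 0.47), -0.069 for miR-141 (adjusted p = 0.73) and -0.031 for miR-429 (adjusted p = 0.89). None of these 4 passed with loess, and their intervals reached down to -0.52 for miR-200b and -0.40 for miR-200c. miR-200c passed with Cy3 alone (-0.63, adjusted p = 0.015) and with the processed signals (-0.76, adjusted p = 0.029), and miR-200b with Cy3 alone (-0.57, adjusted p = 0.018). Cy3 alone called 68 of the 294 tested probes lower in RQ (median -0.19), and the processed signals called 43 lower (median -0.26). With loess all 5 family members were below 0, with a median of -0.12 against 0.035 over all tested probes. With it 3 members had both RQ arrays below both WT arrays, where 29.6% of all probes had. For miR-205 both RQ arrays were above both WT arrays, as for 33% of all probes.

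The size of the miR-200a fall in RQ depended on the scaling more than in MI. With each array centred on its median and no loess, the miR-200a ratios were -0.40 and -0.74 in WT, -1.74 and -1.69 in MI, and -1.09 and -0.96 in RQ. The groups did not overlap, and the order was WT, RQ, MI from high to low. The difference of RQ from WT was then -0.46 (SE 0.13, adjusted p = 0.046), and under the other 3 scalings it was -1.55 to -1.03, each past the threshold. Without scaling, net Cy3 over net Cy5 was 0.943 and 0.663 in WT, 0.320 and 0.359 in MI, and 0.664 and 0.736 in RQ, so that RQ overlapped WT and MI did not. The higher negative-control Cy3 signal of the RQ arrays is still part of these values. miR-200a remained below WT at an adjusted p under 0.05 in all 16 alternatives run for either mutant.

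The loess step moved miR-200a by different amounts on different arrays. It added 1.24 and 1.60 to the log2 ratio on the WT arrays, 1.08 and 0.86 on the MI arrays, and 0.26 and 0.62 on the RQ arrays, relative to median centring. miR-200a is brighter than 83.0% of tested probes, and 41 probes outside the family lay within 0.5 log2 units of its average intensity. For RQ minus WT, 31 of these 41 were below 0 with loess (median -0.62) and 13 with median centring (median 0.20). For MI minus WT, 23 of the 41 were below 0 with loess (median -0.17) and 17 with median centring (median 0.072). Under either scaling miR-200a lay below the median of probes of its brightness in both mutants.

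**Figure D3:**
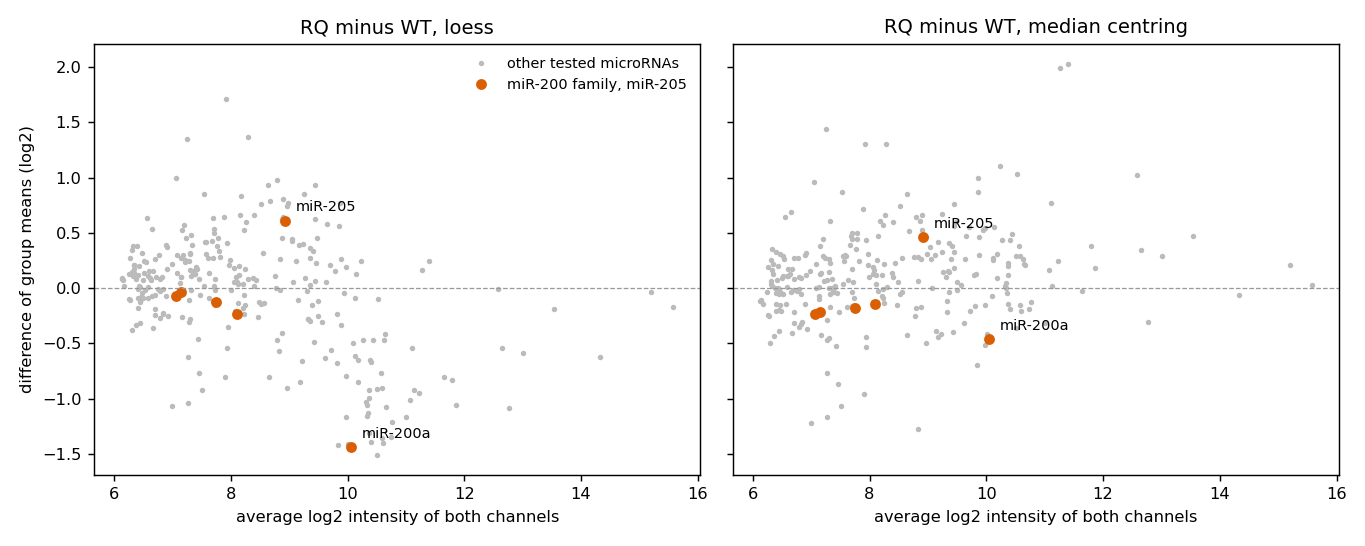
Difference of RQ from WT (log2) against average log2 intensity for the tested probes other than miR-203, with loess (left) and with median centring (right); orange points are the miR-200 family and miR-205, and grey points all others. With loess most probes as bright as miR-200a lie below 0 (31 of 41); with median centring 13 of 41 do, and miR-200a lies at -0.46.

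The rise of miR-205 in RQ was less firm. With median centring its ratios were -0.46 and -0.67 in WT, -0.47 and -0.32 in MI, and -0.037 and -0.17 in RQ, a rise of 0.46 for RQ (adjusted p = 0.032). The RQ arrays were above the other 4. Under the other 3 scalings the difference was 0.035 to 0.52 and did not pass. The call was also lost without WT replicate 2 (0.51, adjusted p = 0.056), without RQ replicate 1 (0.53, adjusted p = 0.15), without RQ replicate 2 (0.70, adjusted p = 0.053), and without MI replicate 1 or MI replicate 2 (0.61, adjusted p = 0.052 in each), where the MI arrays bear on the estimate of spread alone.

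**Figure D4:**
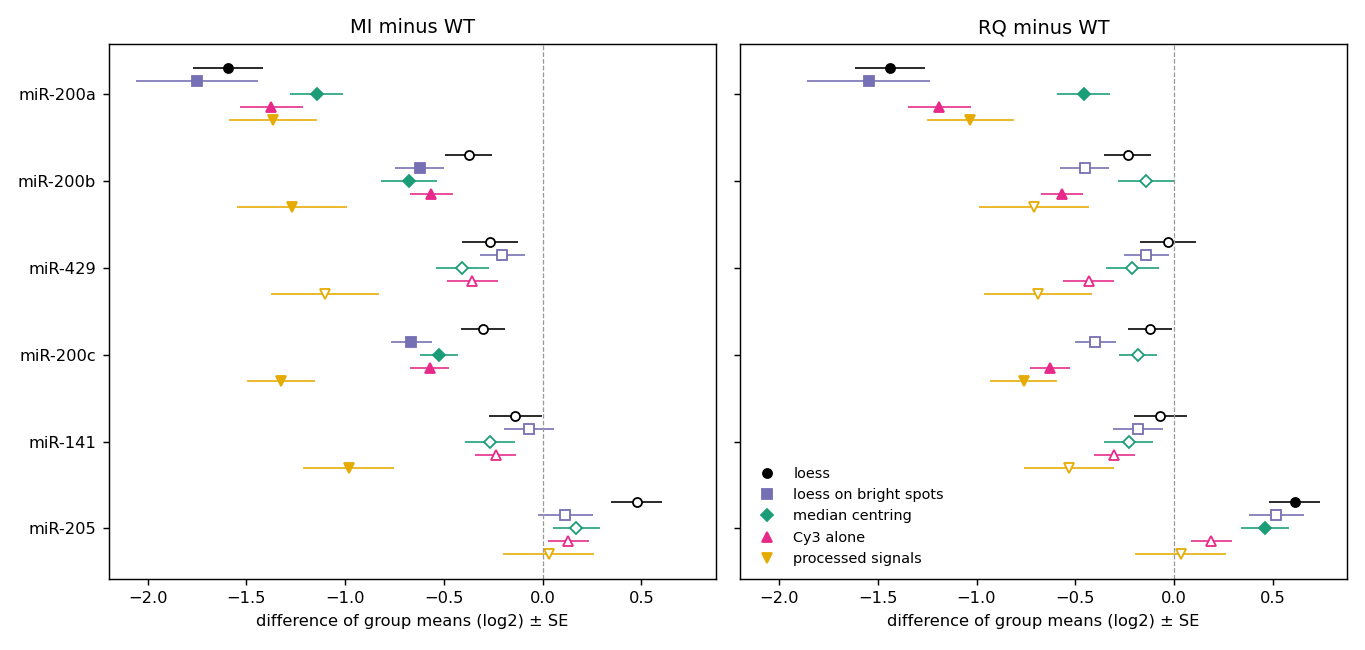
Difference from WT (log2, with SE) of the miR-200 family and miR-205 in MI (left) and RQ (right) under 5 scalings; filled symbols have an adjusted p under 0.05 in limma. miR-200a is filled throughout, at -1.75 to -1.14 in MI and -1.55 to -0.46 in RQ, while miR-200b and miR-200c in MI are filled under every scaling except loess.

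The direct comparison of RQ with MI, both in the same slide row, called none of the 7 members with loess in limma, where 10.9% of all tested probes were called, 3.06% higher and 7.82% lower in RQ; none of the 7 had an unadjusted p under 0.05 either. miR-200a differed by 0.16 (95% interval -0.28 to 0.59, adjusted p = 0.59) and miR-205 by 0.14 (interval -0.18 to 0.45, adjusted p = 0.53). miR-200b, miR-429 and miR-200c were higher in both RQ arrays than in both MI arrays, by 0.14, 0.24 and 0.18, as was miR-205, where 20.1% of all probes were higher on both and 44.9% lower on both. With median centring miR-200a was higher in RQ by 0.69 (adjusted p = 0.017). miR-200b then differed by 0.53 (adjusted p = 0.053) and miR-200c by 0.34 (adjusted p = 0.063). Of the 41 probes as bright as miR-200a, 40 were below 0 in this comparison with loess and 13 with median centring. The difference between the mutants in miR-200a thus passed the threshold under median centring alone among the 5 scalings.

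Within arrays, the ratio of miR-200a was set against those of its relatives, which asks whether members of a cluster or seed group moved by like amounts. The log2 ratio of miR-200a minus that of miR-200b, from the same cluster, was 1.09 and 1.32 on the WT arrays, 0.083 and -0.12 on the MI arrays, and -0.23 and 0.23 on the RQ arrays. All 4 mutant arrays lay below both WT arrays, and the mutant mean was lower by 1.21 (exact two-sided permutation p = 0.067, the smallest that 15 assignments allow). The difference between miR-200a and miR-141, which share a seed, was lower by 1.41 in the mutants (exact permutation p = 0.067). That between miR-200a and miR-429 was lower by 1.37 (exact permutation p = 0.067). For the cluster mates miR-200c and miR-141 the mutant mean was lower by 0.11 (exact permutation p = 0.40). Over these 4 comparisons the adjusted p was 0.089 for the first 3 and 0.40 for the last. With 15 assignments no p under 0.05 was possible, so no call could be made. The first 3 all hold miR-200a, already called lower in these data, and are a description rather than a separate test. The mutant arrays pool MI and RQ, which share a slide row that WT does not.

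These within-array differences kept their sign and changed size with the scaling. That of miR-200a from miR-200b was -0.39 under median centring, -0.72 for Cy3 alone and -0.21 for the processed signals (exact permutation p = 0.20 for the last). Loess acts on each probe according to its brightness, which also depends on the probe and is no measure of abundance between microRNAs. miR-200a (average log2 intensity 10.05) was brighter than miR-200b (8.10), miR-429 (7.14) and miR-141 (7.06). The background-correction offset of 50 is also a larger share of a dim signal, and its part in these differences was not tested. With the processed signals, MI minus WT was -1.37 for miR-200a, -1.33 for miR-200c, -1.27 for miR-200b, -1.10 for miR-429 and -0.98 for miR-141.

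Other microRNAs were ranked by the likeness of their loess ratios to those of miR-200a over the 6 arrays, as a description in which the groups and the normalisation are shared. The 4 of 287 with the highest Pearson r were miR-339 (r = 0.993), miR-26a (0.988), miR-499 (0.970) and miR-466 (0.936). miR-26a fell by 1.41 in RQ and by 1.38 in MI relative to WT, close to the values of miR-200a, but with median centring its RQ difference was -0.42 and did not pass (adjusted p = 0.13). miR-339 had an r of 0.993 with differences of only -0.27 in RQ and -0.31 in MI, since r measures shape and not size. For miR-205 the 4 were miR-335 (r = 0.991), miR-219 (0.965), miR-344 (0.953) and miR-672 (0.940). With the processed signals the r of miR-344 was -0.53 and with Cy3 alone that of miR-219 was -0.20, so those 2 likenesses went with the scaling.

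Lists of other epithelial and of mesenchymal microRNAs were set beside the family. Of 8 tested members of the other epithelial list (the miR-183 cluster, miR-192, miR-194, miR-215, miR-375, miR-31 and miR-224), 0 were called in limma in any of the 3 comparisons, and miR-224 was too dim to test. At an unadjusted p under 0.05 there was 1, miR-194, in RQ minus WT and in MI minus WT and 0 in RQ minus MI. The other scalings also called 0, except that 2 were lower in RQ than in WT with Cy3 alone, where 68 of 294 tested probes were. miR-194, known from intestine and liver, had the largest RQ difference of the list at 0.39 (SE 0.14, adjusted p = 0.091), and miR-182 the largest in MI at -0.35 (SE 0.22, adjusted p = 0.28). The list's median change was 0.0092 in RQ and -0.081 in MI.

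Of 11 tested microRNAs of the mesenchymal and EMT list, 1 rose and 2 fell in RQ relative to WT, where 7.48% of all tested probes rose and 13.9% fell, with a median of 0.039 for the list. miR-155, an immune-cell microRNA also linked to EMT, rose by 1.35 (SE 0.15, adjusted p = 0.0081). miR-21, abundant in stroma and many tumours, fell by 1.35 (SE 0.22, adjusted p = 0.011), and miR-145, a smooth muscle microRNA, fell by 0.68 (SE 0.18, adjusted p = 0.047). With median centring neither fall passed, at -0.19 for miR-21 (adjusted p = 0.39) and -0.16 for miR-145 (adjusted p = 0.31), and 3 members rose: miR-155, miR-214 (0.55) and miR-221 (0.60). The fall of miR-21 also did not pass with the processed signals, nor that of miR-145 with loess on bright spots. With Cy3 alone 2 rose, miR-155 and miR-214, and 4 fell, namely miR-21, miR-145, miR-222 and miR-31. Of the 294 tested probes, 47 rose and 20 fell with median centring, and 18 rose and 68 fell with Cy3 alone. miR-31 is also on the other epithelial list and is counted in both. miR-221, miR-222 and miR-31 are named here after their values were seen. miR-155 was higher in RQ under all 5 scalings. The call of miR-145 was lost on leaving out any of 5 arrays, namely WT replicate 2 and the MI and RQ arrays in turn (adjusted p = 0.086 to 0.24), and that of miR-21 without RQ replicate 1 (-1.17, adjusted p = 0.084). In RQ minus MI, both in the same slide row, 1 member was higher and 2 were lower in limma, where 3.06% and 7.82% of all tested probes were. These were miR-155 (1.11, adjusted p = 0.016), miR-145 (-0.97, adjusted p = 0.034) and miR-214 (-0.59, adjusted p = 0.037). With median centring miR-214 was 0.15 in that comparison. In MI minus WT the list's median was 0.25, against 0.11 over all tested probes. There 1 member of the 11 rose in limma, where 9.18% of all tested probes did: miR-214, a mesenchymal microRNA, by 0.72 (SE 0.12, adjusted p = 0.014). That call was lost with median centring (0.41, adjusted p = 0.063) and with the processed signals. It was also lost without WT replicate 1 (adjusted p = 0.051), MI replicate 1 (0.061) or MI replicate 2 (0.080). The summed net Cy3 of the list was 2691 to 3771 on the WT arrays, 3252 and 4050 on the MI arrays, and 5167 and 5731 on the RQ arrays. Both RQ sums were also above both WT sums for the endoderm and liver, muscle and heart, neural and blood lists. For endoderm and liver they were 828 and 848 against 478 and 445. The RQ sums of the stem cell and other epithelial lists lay between the WT sums. The higher negative-control Cy3 signal of the RQ arrays is still part of all these sums. The part of the mesenchymal sum in the values of the miR-200 family was not tested.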

How the data were processed

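Per the file headers, the custom 2-colour Agilent arrays were read by version 9.5.1.1 of Feature Extraction. The deposited files give the mean and background intensity of each spot on a linear scale, and intensities processed by the scanner software. The deposited value table holds log10 ratios and equals minus the log10 ratio (Cy5 over Cy3) of the scanner files, so it runs as Cy3 over Cy5; each column's median is 0. The files list 1932 of 14712 features; the rest were not analysed here.

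Intensities were background-corrected (normexp, offset 50) and normalised by loess, control and outlier spots at weight 0, in limma 3.58.1 (R 4.3.3). Outlier spots were dropped, and the others averaged per probe as log2 Cy3 over Cy5. Probes with over 0.5 of spots well above background in either channel on 2 arrays were tested (294). Groups were compared on all 6 arrays with lmFit and eBayes (3 residual degrees of freedom), which was tested on simulated data; pairs of members were compared by exact permutation over arrays. The number of arrays limits the precision. Members and lists were chosen with earlier results of these data known. Named microRNAs are all members, the 4 most correlated with miR-200a and with miR-205, and up to 3 with the largest change in each list. A marker check also used blood, endoderm and liver, muscle and heart, and neural lists. Alternatives were other scalings, offsets and filters, outlier spots kept, a replicate block, fewer groups, and each array left out. Sequences and coordinates are from RefSeq tables (GRCm38.p6); the array names no mouse build.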

Additional observations from a re-analysis of the deposited data

How the results depend on the processing

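Over 21 differences of members, 333 values under the alternatives gave 307 on the same side of the threshold, 17 that gained a call and 9 that lost one. Among the 307 were 14 uncalled values that changed sign. The number of called values that changed sign was 0. The number of members called for RQ minus WT was 2, and 1 with loess on bright spots or with only the 2 groups compared (1 to 2 on leaving out arrays). It was 3 with Cy3 alone (miR-200a, miR-200b and miR-200c), and the 2 with the processed signals were miR-200a and miR-200c. Of the 294 tested probes, Cy3 alone called 68 lower (median -0.19) and the processed signals 43 (median -0.26). For MI minus WT the number of members called was 1, where 19 of 294 tested probes were lower. It was 3 with median centring, loess on bright spots, Cy3 alone or normexp offset 10, where 21, 21, 23 and 29 were lower. With the processed signals it was 4, where 23 were lower. For RQ minus MI the number of members called was 0, and 1 with median centring (miR-200a), where 19 of 294 tested probes were higher. Cy3 alone also gave 1, which was miR-203 and is not read as a difference, since no spot of it was above background in Cy3. Over all tested microRNAs, the calls for RQ minus WT were 63, and 5 to 60 on leaving out arrays, with 5 without RQ replicate 1 and 40 without RQ replicate 2. For MI minus WT they were 46, and 27 with only the 2 groups compared. Leaving out arrays gave 6 to 63, namely 6 and 19 without the first and second MI array, 28 and 63 without the first and second WT array, and 27 on dropping an RQ array. For RQ minus MI they were 32, 10 with loess on bright spots and 14 with outlier spots kept. Leaving out arrays gave 0 to 48, namely 0 without either MI array, 1 and 0 without the first and second RQ array, and 48 without a WT array. Calls were higher rather than lower in 34.9% for RQ minus WT with loess and in 70.1% with median centring, in 58.7% and 44.7% for MI minus WT, and in 28.1% and 61.3% for RQ minus MI. With a replicate block the members called were 2, 1 and 0 and all calls 59, 39 and 38 for the 3 comparisons, so no member's call changed. Deviations of same-numbered arrays correlated at 0.18 (WT and MI), 0.12 (WT and RQ) and 0.041 (MI and RQ), and the numbers were not treated as pairing. Relative to loess, the median of all microRNAs moved by up to -0.30 (RQ minus WT, processed signals). Among other named microRNAs, miR-214 in RQ minus MI was 0.15 with median centring, opposite to the loess value. The correlation of miR-205 with miR-344 was -0.58 with loess on bright spots and -0.53 with the processed signals, and that with miR-219 was -0.20 with Cy3 alone; the causes were not tested.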
